A study of Rattus norvegicus with 3 samples.

Results

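The cytochrome P450 enzymes and epoxide hydrolases that convert arachidonic acid were examined in the medullary thick ascending limb (mTAL) of the rat kidney. The listed genes were Cyp4a1, Cyp4a2, Cyp4a3, Cyp4a8, Cyp4f1, Cyp4f4, Cyp2c23, Cyp2j4, Ephx1 and Ephx2. Every probe set of the array whose annotated symbol was one of these genes was taken, which gave 11 of the 31042 probe sets that are not controls and covered all 10 genes, of 14863 named by any probe set. Of these, 10 probe sets named 1 gene, and 1 (1394844_s_at) named Cyp4a2 together with Cyp4a3 and was the only probe set for Cyp4a2. The mTAL was prepared from male Sprague-Dawley rats aged 7 to 8 weeks that had received heparin (250 u) and furosemide (1 mg), a blocker of the main salt transporter of this segment, 30 min earlier. The outer medulla was digested for 60 min with collagenase (1 mg/ml) and hyaluronidase (0.5 mg/ml), and tubules were separated on 33.3% Percoll. All 3 samples belong to this 1 group, with no other tissue, treatment or untreated control, and each was read on 1 Affymetrix array. Since the labels name no animals or pools behind a sample, p-values here reflect sample-to-sample spread alone, and that spread may be technical.

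Arachidonic acid is freed from membrane phospholipids and is then oxidised by cyclooxygenases, lipoxygenases or P450s. Several enzymes of the CYP4A and CYP4F families hydroxylate the end of its chain to form 20-HETE. This product lowers sodium chloride transport in the thick ascending limb and constricts renal arterioles. By contrast, CYP2C and CYP2J enzymes form epoxides (EETs), which dilate vessels and lower sodium reabsorption. Epoxide hydrolases turn the EETs into diols. In the rat kidney these P450s are known from the proximal tubule, which is rich in CYP4A and in CYP2C23, as well as from the thick ascending limb and small arteries.

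Values are linear probe set signals. Each was held against a cutoff set on each array, the 95th percentile of 68 genes known from other tissues such as brain, pancreas and muscle, which lay at 587, 599 and 561 on replicates 1, 2 and 3. A probe set was called detected where the mean of log2 signal minus cutoff over the 3 arrays was above 0 by limma's one-sided test, with p-values adjusted by Benjamini and Hochberg over all 31042 probe sets at a threshold of 0.05. Levels are not compared between genes, as each probe set binds its transcript with its own strength.

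The preparations differed in how much signal they gave for markers of other kidney cells. The labelled tissue was checked first. All 14 markers of the thick ascending limb, among them Umod, Egf and Slc12a1, were detected, and their summed signal was 271866, 264606 and 248143 on replicates 1, 2 and 3. The summed signal of 30 proximal tubule markers was 9529.6, 33915 and 104343, a 10.9-fold difference between replicates 3 and 1, and 3, 13 and 21 of the 30 were above the cutoff. The 3 detected by limma were Hao2, Ggt1 and Acy3. No proximal marker was listed at 0, and the lowest on replicate 1 were Slc13a1 (4.85) and Slc7a9 (5.77). The summed signals of the lists for other cells were between 1.24-fold (leukocytes) and 2.35-fold (intercalated cells) higher on replicate 3 than on replicate 1. Detected were 5 of 5 thin limb markers (among them Cryab, Aqp1 and Fst), 6 of 11 endothelial (Esam, Plvap and Emcn), 1 of 8 smooth muscle and mural (Cspg4), 3 of 8 principal cell (Tfcp2l1, Aqp2 and Avpr2), 2 of 12 leukocyte (Cd74 and Lyz2) and 0 of 6 intercalated cell markers, of which 0 had an unadjusted limma p under 0.05. The sums were 1.48-fold higher for the thin limb, 1.56-fold for endothelium, 1.87-fold for vascular smooth muscle and mural cells and 2.16-fold for principal cells. A sum is carried by its strongest probe sets, so these folds do not give the change of a cell type. On replicates 1 and 3 Cd74 alone gave 23219 and 27671 of the leukocyte sums of 25715 and 31800. Tfcp2l1 gave 6184 and 9186 of the principal cell sums of 11788 and 25443. For RNA integrity, control probe sets at the 3' end were set against those at the 5' end, and the log2 ratio was 1.48, 1.18 and 1.95 for Actb and 0.51, 0.43 and 0.60 for Gapdh. In bulk RNA, fewer cells of a type and less RNA per cell cannot be told apart.

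Of the 11 probe sets 2 were detected, those of both epoxide hydrolases, beside 29.5% of all probe sets. The P450 probe sets split by how far their signal differed between arrays. A group of 7, for Cyp4a1, Cyp4a2, Cyp4a3, Cyp4a8, Cyp4f1 and Cyp2c23, differed strongly, and a pair, for Cyp4f4 and Cyp2j4, differed less. That pair stayed below the cutoff throughout, as did Cyp4a1 of the group of 7. On single arrays, 2 of the 11 were above the cutoff on replicate 1 (36.4% of all probe sets), 6 on replicate 2 (36.8%) and 8 on replicate 3 (37.3%). The same 2 hydrolase probe sets were above it on all arrays, so that 0, 4 and 6 of the 7 variable P450 probe sets were above it on replicates 1, 2 and 3.

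**Figure D1:**
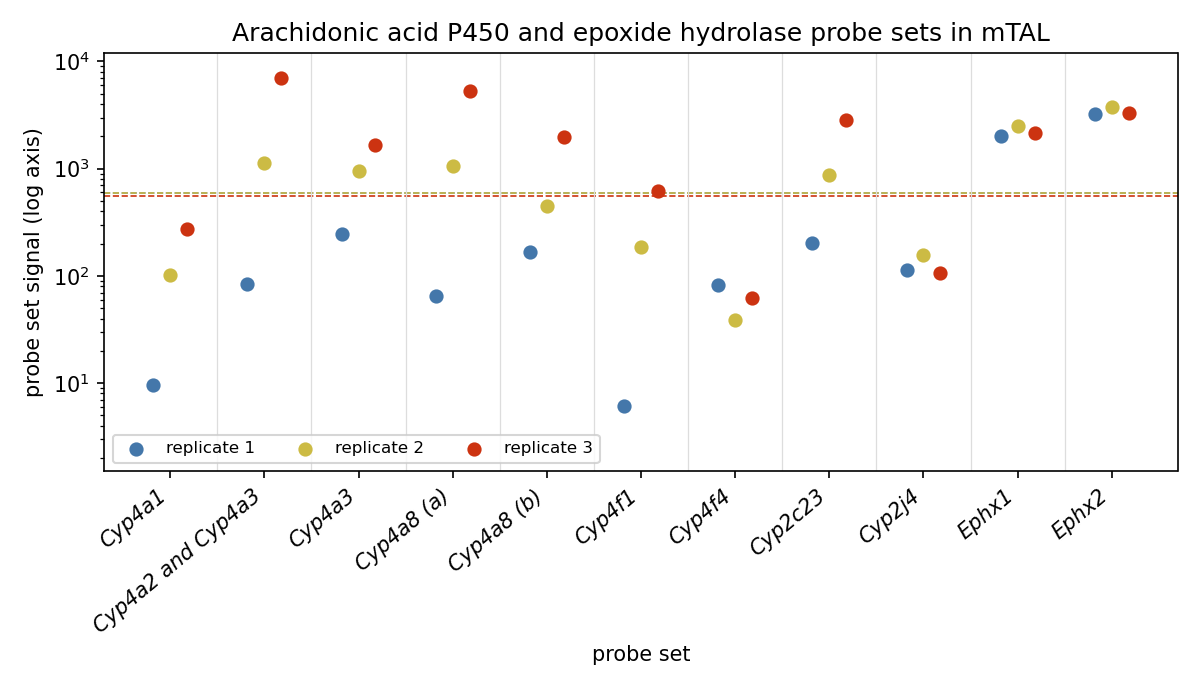
Signal of each of the 11 probe sets (x axis) on a logarithmic axis, with 1 point per array and dashed lines for the detection cutoff of each array (587, 599 and 561). Cyp4a8 (a) is 1368607_at and (b) is 1393894_at; the 3 points of Ephx1 and Ephx2 lie close together above the lines, those of Cyp4f4 and Cyp2j4 lie below them, and the other probe sets spread with replicate 1 lowest and replicate 3 highest.

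The CYP4A genes, a family that includes the main makers of 20-HETE in the rat kidney, showed the variable pattern in all 5 of their probe sets. In the RefSeq annotation of the rat assembly GRCr8, they lie side by side on chromosome 5 in the order Cyp4a8, Cyp4a2, Cyp4a2l1, Cyp4a3 and Cyp4a1, with Cyp4x1 and Cyp4b1 on either side. Cyp4a2 and Cyp4a3 are known as close copies. Closest in signal pattern to the probe set they share was 1368607_at of Cyp4a8, not its other probe set 1393894_at. The 250 bases before the RefSeq starts of Cyp4a2, Cyp4a3 and Cyp4a8 are shown. They are given 5′ to 3′ on the gene's strand (minus for all 3), with capitals for the nuclear receptor half-site AGGTCA.

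Cyp4a2 (GRCr8 chr5:134170909-134171158): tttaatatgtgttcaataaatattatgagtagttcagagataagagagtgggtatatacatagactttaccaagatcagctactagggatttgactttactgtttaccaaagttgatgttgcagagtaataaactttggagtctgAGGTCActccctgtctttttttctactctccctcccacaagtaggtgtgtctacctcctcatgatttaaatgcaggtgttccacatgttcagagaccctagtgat
Cyp4a3 (GRCr8 chr5:134352237-134352486): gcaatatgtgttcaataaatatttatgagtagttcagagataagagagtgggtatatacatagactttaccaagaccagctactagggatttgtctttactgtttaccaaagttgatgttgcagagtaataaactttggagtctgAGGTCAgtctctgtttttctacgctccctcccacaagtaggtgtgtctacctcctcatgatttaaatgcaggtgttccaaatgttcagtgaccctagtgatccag
Cyp4a8 (GRCr8 chr5:133970227-133970476): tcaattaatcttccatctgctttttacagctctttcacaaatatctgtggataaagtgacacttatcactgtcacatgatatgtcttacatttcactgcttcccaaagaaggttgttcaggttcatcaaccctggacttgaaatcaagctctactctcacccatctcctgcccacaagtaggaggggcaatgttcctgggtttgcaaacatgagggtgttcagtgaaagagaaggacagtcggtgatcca

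In a global alignment the Cyp4a2 and Cyp4a3 windows were identical at 92.5% of 255 positions, and Cyp4a8 matched them at 57.4% and 59.9% of 272 positions. For comparison, Cyp4a2, Cyp4a3 and Cyp4a8 matched Ephx1, a gene of another family, at 51.0%, 51.5% and 51.2%, and Cyp2c23 matched it at 47.6%. Only 1 window of Ephx1 was aligned. RefSeq held such windows for 7 of the 10 genes, with 2 for Ephx1; Cyp4a1, Cyp4f4 and Ephx2 had none in the table used. The half-site AGGTCA lay at the same place in Cyp4a2 and Cyp4a3, from 105 to 100 bases before the start, and among all 33469 windows 14.1% held it on either strand. Of the other member windows, 1 of the 2 of Ephx1 held it. Each motif was searched on both strands, and the half-site is part of the full PPARA-RXR element. That element, a pair of AGGTCA copies in the same direction with 1 base between them, is of the kind through which fibrates and fatty acids are known to raise CYP4A expression. It was in 0 of the 8 member windows and in 0.0508% of all. The TATA box TATAAA (12.9% of all), the HNF4A site CAAAGTCCA (0.338%) and the full HNF1 site, GTTAAT and its reverse complement with 1 base between them (0.00299%), were in 0 of the 8 as well, and the HNF1 half-site GTTAAT (6.45%), part of the full site, was in that of Cyp4f1. A match is only a match of letters.

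The probe set shared by Cyp4a2 and Cyp4a3 gave 83.8, 1124 and 7063 on replicates 1, 2 and 3. It was below the cutoff on replicate 1 and above it on the others, and the arrays did not come near each other. Its mean lay 0.59 ± 1.43 log2 units above the cutoff (SE, n = 3), with a limma adjusted p of 0.986. The second probe set for Cyp4a3, 1370397_at, which names that gene alone, gave 249, 942 and 1652, again lowest on replicate 1. Its mean lay 0.32 ± 0.64 above the cutoff (SE, limma adjusted p = 0.902). The probe sets thus put the gap between replicates 3 and 1 at different sizes, 6.40 log2 units for the shared one and 2.73 for the one of Cyp4a3 alone. How much of the shared signal was Cyp4a2 cannot be read from it.

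Cyp4a8, a CYP4A enzyme of rat kidney, was read by a pair of probe sets. The first, 1368607_at, gave 65.0, 1059.6 and 5304 on replicates 1, 2 and 3. The second, 1393894_at, gave 166, 446 and 1976. Both had replicate 1 lowest and replicate 3 highest, but the first crossed the cutoff on replicate 2 and the second only on replicate 3. They put the gap between replicates 3 and 1 at 6.35 and 3.57 log2 units, so its size depends on the probe set. Neither was detected (log2 signal minus cutoff 0.30 ± 1.43 and -0.14 ± 0.81, SE, limma adjusted p = 1.00 for both).

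Cyp4a1, which encodes the CYP4A enzyme best known as the fibrate-induced lauric acid hydroxylase of liver, gave 9.53, 101 and 276. It followed the same pattern but stayed below the cutoff on all 3 arrays, so that no fold is given for it. The mean log2 signal minus cutoff was -3.18 ± 1.11 (SE, limma adjusted p = 1.00).

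The CYP4F genes differed from each other. Cyp4f1, whose enzyme hydroxylates leukotriene B4 and arachidonic acid, gave 6.09, 185 and 625, with only replicate 3 above the cutoff. Cyp4f4 gave 82.8, 38.5 and 62.1, below the cutoff on every array, with replicate 2 lowest. Neither was detected (log2 signal minus cutoff -2.71 ± 1.53 and -3.32 ± 0.28, SE, limma adjusted p = 1.00 for both). Among the CYP4 genes outside the list, Cyp4f6, which lies next to Cyp4f1 in GRCr8, gave 1606, 1594 and 1384 and was detected (limma adjusted p = 0.00206). Its arrays lay close together, unlike those of Cyp4f1.

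Of the epoxygenases, Cyp2c23, which encodes the main EET-forming enzyme of the rat kidney, gave 204, 878 and 2816. It was below the cutoff on replicate 1 and above it on the others, and its mean lay 0.45 ± 0.85 log2 units above the cutoff (SE, limma adjusted p = 0.885). Cyp2j4 gave 113, 157 and 106, all below the cutoff, and its arrays lay within a narrow band (log2 signal minus cutoff -2.24 ± 0.16, SE, limma adjusted p = 1.00).

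The epoxide hydrolases were the steady members. Ephx2, the soluble hydrolase that turns EETs into diols, gave 3249, 3774 and 3275, or 3433 ± 296 (SD, n = 3). It stood 2.56 ± 0.12 log2 units above the cutoff (SE, limma adjusted p = 0.000622). Ephx1, the microsomal hydrolase, which acts mainly on foreign epoxides, gave 2038, 2484 and 2147, or 2223 ± 232 (SD, n = 3). It stood 1.93 ± 0.13 above the cutoff (SE, limma adjusted p = 0.00111). For both genes replicate 2 was highest, and replicates 1 and 3 differed by 0.01 (Ephx2) and 0.08 (Ephx1) log2 units. Over all probe sets the SD of log2 signal between arrays had a median of 0.34. Over the 7 variable P450 probe sets it ran from 1.40 to 3.46, and over the other 4 members from 0.12 to 0.56. The 7 were grouped by their difference between arrays, so a larger SD than in the other 4 follows from the grouping.

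Of the 7 variable probe sets, 3 had a mean below the cutoff (Cyp4a1, Cyp4f1 and 1393894_at of Cyp4a8) and the other 4 a mean above it by less than their SE. Failure to pass the detection test does not show that a transcript is absent, and 6 of the 7 were above the cutoff on replicate 3. Without replicate 1 the shared probe set of Cyp4a2 and Cyp4a3 lay 2.28 log2 units above the cutoff (limma adjusted p = 0.149, and from there to 1.00 over its alternatives). Likewise, 1368607_at of Cyp4a8 lay 2.03 above it (0.148, to 1.00) and Cyp2c23 1.44 (0.165, with a range from 0.132 to 1.00), and without replicate 3 all 3 had means below it (-0.95, -1.18 and -0.49). Closest to detection was 1370397_at of Cyp4a3, which without replicate 1 lay 1.11 above the cutoff (limma adjusted p = 0.0971, range over its alternatives 0.0858 to 1.00). At an unadjusted limma p under 0.05 there were 2 member probe sets with all arrays and 6 without replicate 1. Both hydrolases were detected without any 1 array, but a cutoff raised to the 99th percentile left 0 members detected by limma, with 0 at an unadjusted p under 0.05.

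The differences between arrays were then set beside the same differences over all probe sets. With 1 array on each side there is no test, and the direction was noticed after values were seen. Of the 11 member probe sets 7 were at least 2-fold higher on replicate 3 than on replicate 1, beside 11.4% of all probe sets, and 0 were at least 2-fold lower (11.2%). The same 7 were at least 2-fold higher on replicate 2 than on replicate 1 (12.5%), and 6 of them were at least 2-fold higher on replicate 3 than on replicate 2 (9.97%). Those 6 met both steps, which 0.989% of all probe sets did; the exception was 1370397_at of Cyp4a3. The median difference between replicates 3 and 1 was 3.57 log2 units over the 11 members and -0.04 over all probe sets.

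The size of these differences rests on replicate 1 signals below the cutoff and is not a measured fold. With the cutoff in place of the replicate 1 signal, replicate 3 was at least 12.0-fold higher for the shared probe set of Cyp4a2 and Cyp4a3 and at least 9.04-fold for 1368607_at of Cyp4a8. It was at least 4.80-fold higher for Cyp2c23, 3.37-fold for 1393894_at of Cyp4a8, 2.81-fold for 1370397_at of Cyp4a3 and 1.07-fold for Cyp4f1.

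Proximal tubule markers moved the same way. All 30 had their lowest signal on replicate 1 and 27 their highest on replicate 3, and 17 met both 2-fold steps. Their median difference between replicates 3 and 1 was 4.06 log2 units (middle range over genes 2.40 to 4.99, lowest 0.03, highest 7.27). The 7 variable P450 probe sets ran from 2.73 for 1370397_at of Cyp4a3 to 6.68 for Cyp4f1. That they lay inside the marker span does not set them apart, as the span is wide and held Ephx1 (0.08) too. All 7, and all but 3 of the 30 markers, were below the cutoff on replicate 1, so the sizes of these differences are not exact. The amino acid transporter gene Slc7a13 (6.77) and the androgen-regulated gene Kap (7.27) had larger differences than any member. By contrast, the thick ascending limb markers had a median difference of -0.14, with 13 of 14 within 2-fold. Ephx1, Ephx2, Cyp2j4 and Cyp4f4 were within 2-fold too, as most probe sets were. Over all probe sets, 11.4% were at least 2-fold higher on replicate 3 and 11.2% at least 2-fold lower. Cyp2j4 and Cyp4f4 were below the cutoff on every array, so their small differences do not liken them to these markers. Medians for the other cell lists were 0.51 for leukocytes, 0.73 for the thin limb, 0.75 for intercalated cells, 0.86 for endothelium, 1.32 for smooth muscle and mural cells and 1.57 for principal cells. The rise was not limited to proximal markers. At least 2-fold higher on replicate 3 were 6 of 8 smooth muscle and mural, 5 of 8 principal cell and 5 of 11 endothelial markers. So were 4 of 12 leukocyte (1 was 2-fold lower), 2 of 6 intercalated cell and 0 of 5 thin limb markers. Tagln (3.39), C1qa (3.08) and Vwf (3.01) had larger differences than 1370397_at of Cyp4a3. However, C1qa (28.8, 154 and 243) and Vwf (15.0, 422 and 121) were below the cutoff on every array. Vwf was also highest on replicate 2, unlike the variable members. The principal cell markers Aqp2 and Aqp3 met both 2-fold steps. The part of cells other than mTAL in the P450 signals was not tested.

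**Figure D2:**
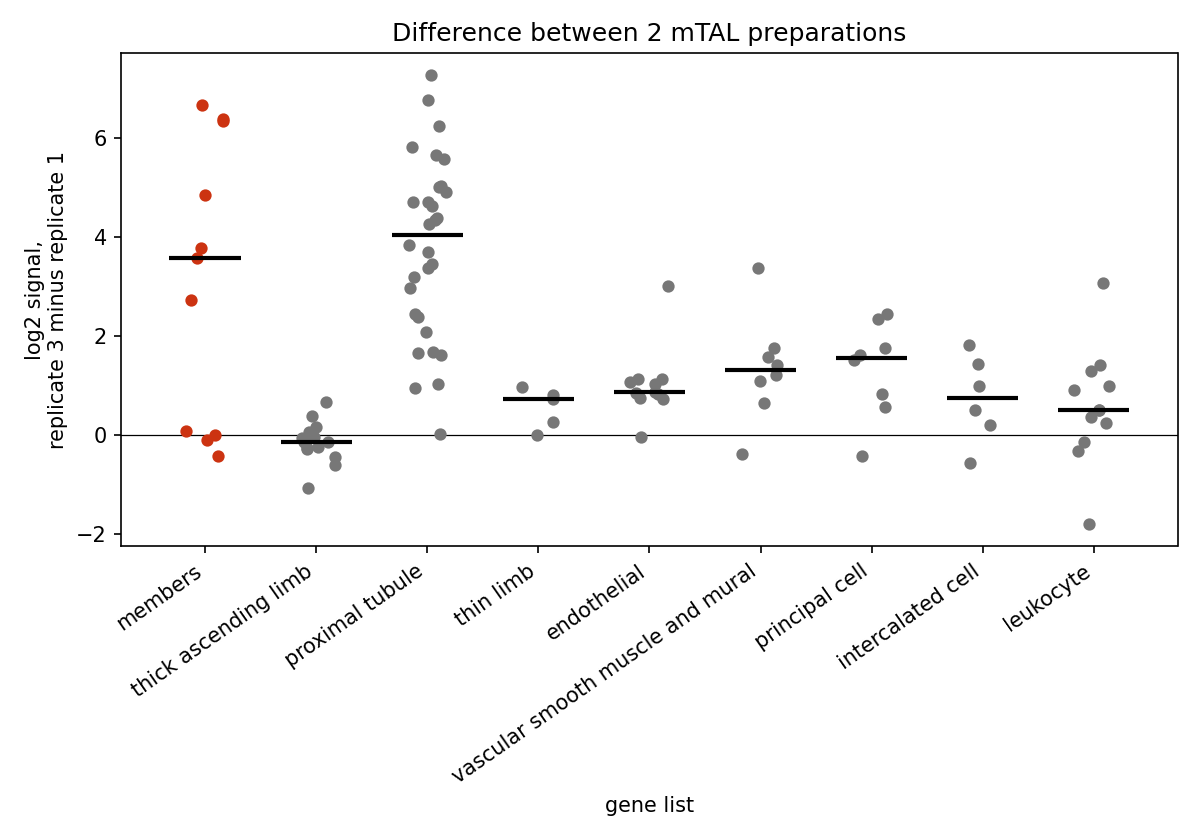
Log2 signal on replicate 3 minus replicate 1 (y axis) for the 11 member probe sets and for the genes of each marker list, with 1 point per probe set or gene and a bar at the median. The members form a cluster from 2.73 to 6.68 and a cluster near 0. The proximal tubule markers run from 0.03 to 7.27 (median 4.06), and the thick ascending limb markers have a median of -0.14.

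Genes with the most similar course over the 3 arrays were sought for each variable member among the genes whose mean log2 signal was above the mean cutoff. Likeness was the Euclidean distance between deviations from each gene's own mean, and with 3 arrays many genes can come close. Nearest to the shared Cyp4a2 and Cyp4a3 probe set were Cyp4a8 (distance 0.25), the phosphate transporter gene Slc34a1 (0.59) and Slc7a13 (0.70). In this search Cyp4a8 was read by 1368607_at alone, and 1393894_at, with its smaller gap, was not used. Nearest to 1368607_at of Cyp4a8 were Slc7a13 (0.50), Slc34a1 (0.72) and Kap (1.00). Nearest to Cyp4f1 were Slc7a13 (0.20), Kap (0.45) and Cyp4a8 (0.64). Nearest to Cyp4a1 were the cystine transporter gene Slc3a1 (0.45), the secreted glutathione peroxidase gene Gpx3 (0.73) and the inositol oxygenase gene Miox (0.77). Nearest to Cyp2c23 were the aminopeptidase gene Anpep (0.30), Gpx3 again (0.34) and the glutathione synthesis gene Gclc (0.40). Since the search kept only genes with a mean above the cutoff, a gene low on replicate 1 could enter only through high signals on the other arrays.

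Signals of Slc34a1 were 91.9, 752 and 4684, those of Slc7a13 124, 3301 and 13569, and those of Anpep 223, 1128 and 2689.7. All 3 were below the cutoff on replicate 1 and above it on the others. So were the shared Cyp4a2 and Cyp4a3 probe set, 1368607_at of Cyp4a8 and Cyp2c23, whereas Cyp4f1 was above it only on replicate 3 and Cyp4a1 on no array. The 3 genes were found by their likeness to these members, so a shared course follows from the search. Gclc, also among the nearest to Cyp2c23, gave 691 on replicate 1, above the cutoff.

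Genes that serve the same pathway were taken from 9 lists, of which 64 of 85 listed genes were measured, and 27 of the 64 were detected beside 44.6% of all genes, each read by its probe set with the highest mean. Of these 27, 26 differed by less than 2-fold between replicates 3 and 1. The exception was Angptl4, the secreted lipase inhibitor, with signals of 2381, 4523 and 11071 (limma adjusted p = 0.0122). A large spread between arrays works against detection, so steadiness among detected genes follows in part from the test. Of all 64 measured genes, detected or not, 45 differed by less than 2-fold. Over all probe sets, 11.4% were at least 2-fold higher on replicate 3 than on replicate 1 and 11.2% at least 2-fold lower. Most probe sets thus lay within 2-fold, and the pathway genes do not stand out as steady.

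Genes for enzymes that release arachidonic acid were partly detected, 3 of 10. Pla2g4a, the cytosolic phospholipase A2 that is selective for arachidonic acid, gave 1151, 1166 and 1169.9 (limma adjusted p = 0.00467), with nearly equal arrays. The others were Pla2g12a (1938 ± 436, SD, n = 3) and the lysosomal Pla2g15 (894 ± 72.7). The genes for proteins that pass electrons to P450s were all detected, 4 of 4. Por, the P450 reductase without which microsomal P450s do not work, gave 1347, 1627 and 1440.1 (limma adjusted p = 0.00265). Cytochrome b5 genes had signals of 7708 ± 310 (Cyb5a) and 12099.9 ± 956 (Cyb5b), and the b5 reductase gene Cyb5r3 was steady as well.

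Of the other CYP4 genes 2 of 5 were detected, Cyp4f6 and Cyp4v3 (5748, 4194 and 4142, limma adjusted p = 0.000751), a fatty acid hydroxylase. Neither was higher on replicate 3 than on replicate 1. Of 8 other CYP2C and CYP2J genes, among them Cyp2c11 and Cyp2j3, 0 were detected by limma, 0 had an unadjusted p under 0.05, and 0 were above the cutoff on any array. Of the other epoxide hydrolases, Lta4h, which makes leukotriene B4, was detected (4488 ± 594, SD, n = 3) and Ephx4 was not.

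In the cyclooxygenase and lipoxygenase branches 3 of 11 genes were detected, Ptges3 (14646 ± 441), Ptges2 (4476 ± 488) and Ptgds (3368 ± 352, SD, n = 3 for each), which are prostaglandin synthase genes or related to them. Of 5 measured genes of 20-HETE and EET response 1 was detected, the cation channel gene Trpv4 (1469 ± 98.6), which EETs open. Of 10 genes of eicosanoid inactivation and fatty acid handling 6 were detected, among them Fabp3 (33017 ± 1910.5), Acsl1 (17938 ± 728) and Acsl4 (4877 ± 867). Of 9 measured targets of PPARA other than P450s 7 were detected, among them Acadm (25189 ± 2463), Cpt1a (14103 ± 1365) and Hadha (12032 ± 552). Of the 9, 7 were higher on replicate 3 than on replicate 1. At least 2-fold higher were 3 (beside 11.4% of all probe sets), and 0 were at least 2-fold lower (11.2%). These 3 were Angptl4, the thioesterase gene Acot1 (137, 509 and 626) and the pantetheinase gene Vnn1 (161, 607 and 442), of which Acot1 and Vnn1 were not detected. The summed signal of the 9 was 1.15-fold higher on replicate 3. Ppara itself gave 126, 117 and 14.1 and was not detected. Other lists held genes at least 2-fold higher on replicate 3 as well. These were 4 of 11 cyclooxygenase and lipoxygenase genes, 3 of 10 phospholipases A2 (1 was 2-fold lower) and 2 of 10 inactivation and fatty acid genes. They also were 1 of 8 other CYP2C and CYP2J genes (2 lower) and 1 of 5 response genes (1 lower).

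**Figure D3:**
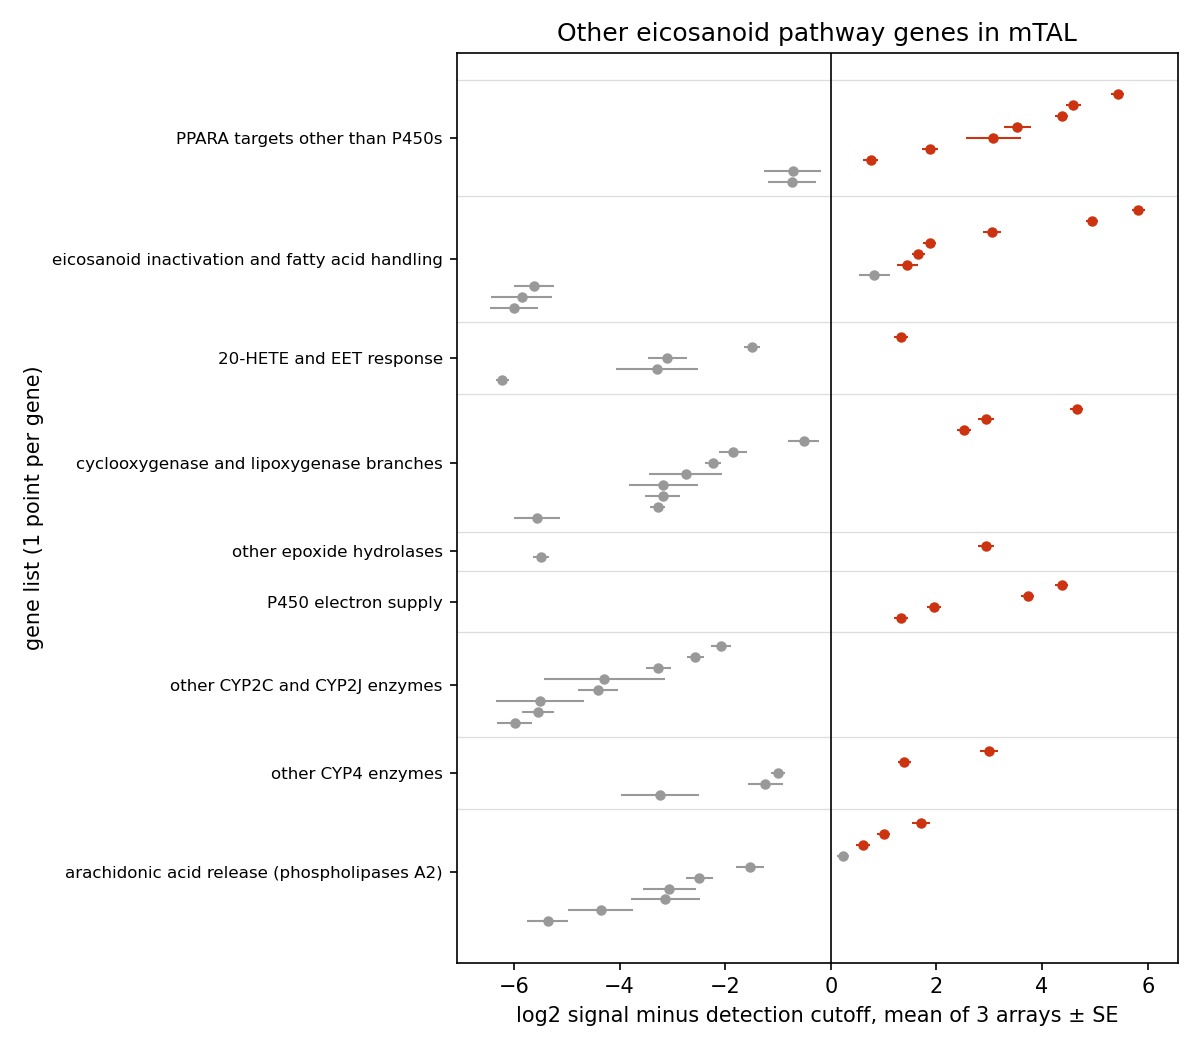
Mean log2 signal minus the detection cutoff (x axis, mean of 3 arrays with SE bars) for the 64 measured genes of the 9 pathway lists (y axis), with 1 point per gene. Red points are the 27 genes detected by limma and grey points the others; all 4 electron supply genes lie to the right of 0 and all 8 other CYP2C and CYP2J genes to the left.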

How the data were processed

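The deposited values are linear intensities, 1 for each probe set on each array; how probes were summarised and arrays scaled is not given in the sources used here. RNA was labelled by Affymetrix protocols, per the labels' protocols. Of 31099 probe sets, 57 controls were left out. Genes came from the platform annotation (1 gene for 20826 probe sets, several for 436, none for 9780), with symbols updated through RefSeq GRCr8 identifiers. All values were above 0, so log2 was taken with no pseudocount. Detection was tested with limma 3.58.1 (lmFit, eBayes) in R 4.3.3 and the code was tested on simulated data. Of 75 listed genes of other tissues 68 were measured and set the cutoff. Members, lists and tests were chosen with earlier results of these data known. The text names every member probe set, up to 3 detected genes per pathway or marker list (by highest mean), and the 3 nearest genes of members whose arrays differed 4-fold or more; other genes were singled out with their values in view. Having only 3 arrays limits precision. Alternatives were another normalization, pseudocount, cutoff, filter, variance model and 1 probe set per gene, and leaving out each array.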

Additional observations from a re-analysis of the deposited data

How the results depend on the processing

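Both hydrolases were detected, and the other 9 member probe sets were not wherever tested, under quantile normalization, a common 75th percentile, a pseudocount of 16, a cutoff at the 90th percentile or without Myh1, a filter on low probe sets, 1 probe set per gene (neither of which tests all 9), a mean-variance trend and without each array in turn. Member probe sets with an unadjusted p under 0.05 numbered 2 with all arrays, 3 at the 90th percentile and 6 without replicate 1, and 1370397_at of Cyp4a3 had limma adjusted p = 0.0858 and 0.0971 under these 2 alternatives. With the cutoff at the 99th percentile 0 members were detected, with Ephx1 at -1.20 and Ephx2 at -0.57 log2 units relative to it, along with 564 of all probe sets and 6 pathway genes; this cutoff rests on the highest of the 68 genes. The 90th percentile gave 13779 probe sets. Without each array in turn, 7772 to 7880 probe sets, 24 to 26 pathway genes and 2 to 2 member probe sets were detected. The count of members at least 2-fold higher on replicate 3 than on replicate 1 was 4 among those with a mean above the cutoff, since that filter keeps only 6, and 6 or 7 under the other settings; leaving out an array gives no value for this difference. The members' median difference ran from 3.15 to 3.57 and that of the proximal tubule markers from 3.39 to 4.71. The 4.71 came from the filter on a mean above the cutoff. A gene low on replicate 1 passes that filter only through high signals on the other arrays, so the filter itself favours large differences. No paired analysis was possible because all samples form 1 group. Signals below the cutoff limit every difference that involves replicate 1.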
